A study of Homo sapiens with 12 samples.

Results

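In BT-549 cells, 887 accessible regions had at least 2 times more relative coverage with doxycycline (DOX) than with vehicle, and they are called raised regions here. They were selected from the 46298 regions of the BT-549 table, of which 45083 lie on autosomes. Each region was represented by its highest 100-bp bin. The value of that bin was divided by the summed coverage of its library and multiplied by 1000000, which gives the relative coverage. A region was selected where the DOX mean was at least 2 times the vehicle mean, the lowest DOX value was above the highest vehicle value and the unscaled mean over the 6 libraries was at least 10. Of the 26996 autosomal regions with such an unscaled mean (eligible regions), 3.29% were selected, and 4311 (16.0%) met the mirrored rule with vehicle over DOX (lowered regions). The vehicle libraries held more coverage, so regions high in vehicle passed the unscaled minimum more easily than regions high in DOX. Without the minimum, 2096 regions met the raised rule, and the lowered count without it was not computed. The raised and lowered counts are therefore not directly comparable. Since the BT-549 libraries chose the regions, every BT-549 difference between DOX and vehicle is a description with no test.

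The BT-549 line comes from a human triple-negative breast cancer. The DU-145 line comes from a human prostate cancer, and its libraries were not used by the selection. Both lines carried the inducible hairpin tet-MUC1shRNA, with which DOX silences MUC1, the gene of the transmembrane oncoprotein subunit MUC1-C. Cells of each line were treated with vehicle, which was 0.1% DMSO, or with DOX for 7 days, with 3 independent replicates per group and 50000 cells per ATAC-seq library. The BT-549 medium also held insulin. The effects of DOX itself and of MUC1 silencing cannot be told apart in these groups, since no control-hairpin libraries entered the analysis. The libraries are bulk, so a change in fewer cells and a weaker change in all cells cannot be told apart.

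The BT-549 DOX libraries held less coverage than the vehicle libraries, with sums of 2502510 to 3267024 against 9142900 to 13606129. In DU-145 the sums ranged from 12370094 to 25232000 and overlapped between the conditions. BT-549 had a region within 1 kb of a transcription start site (TSS) of all 6 mesenchymal markers examined, which include VIM and ZEB1. Of 6 epithelial markers GRHL2 alone had one, and none was found at the blood and endothelial markers. The MUC1 promoter of BT-549 had a relative coverage of 15.1, 20.1 and 14.9 with vehicle and 10.6, 14.6 and 13.3 with DOX. It is no check of the silencing, because a hairpin acts on the transcript.

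ATAC-seq measures where the Tn5 transposase can insert adapters, that is, where DNA is not wrapped in nucleosomes. Such DNA lies at promoters, many of which are CpG-rich and open in most cell types, and at distal elements such as enhancers, which differ more between cell types. AP-1, the family of JUN and FOS dimers, binds at many enhancers. Its sites were sought with the letters TGANTCA, where N is any base, so the pattern is looser than an AP-1 site. SP1 binds GC-rich promoters, and CTCF binds insulators.

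Distal raised regions often held AP-1 letters. The following highest bins are shown because they had the largest ratios among raised regions that lie more than 3 kb from a TSS, hold TGANTCA in the bin outside exons and overlap a DU-145 region. All sequences are of GRCh38, plus strand, 5′ to 3′, and the capitals mark the matches. Regions carry the name of the gene with the nearest TSS, which is a position and not a target.
TENM2 (chr5:167759601-167759700, intron): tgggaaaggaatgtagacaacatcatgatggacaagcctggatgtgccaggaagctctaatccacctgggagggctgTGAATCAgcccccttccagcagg
ENSG00000212377 (chr13:72391001-72391100, intergenic): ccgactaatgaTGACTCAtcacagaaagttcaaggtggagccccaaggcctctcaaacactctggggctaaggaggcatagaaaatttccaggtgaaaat
Y_RNA (chr4:145955001-145955100, intergenic): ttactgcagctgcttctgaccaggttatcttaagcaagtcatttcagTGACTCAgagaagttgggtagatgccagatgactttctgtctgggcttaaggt

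The next bins are shown because the DU-145 region that overlaps them passed the call described further on, with more coverage in DOX near LINC01450 and MIR5008 and less for LINC01376. The bin near MIR5008 holds the letters 3 times.
LINC01450 (chr7:41029201-41029300, intergenic): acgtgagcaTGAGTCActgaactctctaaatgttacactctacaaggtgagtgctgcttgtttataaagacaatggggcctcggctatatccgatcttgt
MIR5008 (chr1:227935001-227935100, intron): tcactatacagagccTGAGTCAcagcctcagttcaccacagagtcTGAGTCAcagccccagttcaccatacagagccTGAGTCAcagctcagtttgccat
LINC01376 (chr2:18991701-18991800, intron): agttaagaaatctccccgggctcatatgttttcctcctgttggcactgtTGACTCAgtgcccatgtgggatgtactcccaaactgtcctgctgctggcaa

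The largest ratios were found away from promoters. The intergenic region near MIR4708 (chr14:65356501-65356600) had a relative coverage of 0.961, 0.970 and 0.990 with vehicle and 10.9, 12.4 and 12.1 with DOX, a ratio of 12.1. Its unscaled values did not overlap either, at 13.1, 11.3 and 9.05 with vehicle and 28.1, 31.1 and 39.5 with DOX. The intergenic region near ENSG00000235089 on chromosome 1 had a like ratio of 12.1, at 0.761, 1.0 and 0.652 with vehicle and 9.93, 11 and 8.36 with DOX. No DU-145 region overlapped it. The intronic region of TENM2, the gene of a teneurin that takes part in cell adhesion, had 0.437, 1.01 and 0.470 with vehicle and 5.72, 9.86 and 5.49 with DOX. A region 15300 bp from ETS1, an ETS family transcription factor, had 0.690, 0.590 and 1.19 with vehicle and 6.15, 9.99 and 6.33 with DOX. DOX replicate 2 was the highest library in both of these regions. Their unscaled vehicle values were low, at 5.95, 11.7 and 4.3 for TENM2 and 9.39, 6.89 and 10.8 for ETS1. The minimum of 10 was set on the mean over vehicle and DOX. A region with low vehicle values, and so a large ratio, could therefore pass through its DOX values.

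The other 8 of the 12 largest ratios lay between 8.12 and 8.78. They were found near KRT19P6, ENSG00000257241, ENSG00000212377, RNU6ATAC19P, ENSG00000223624 and RNA5-8SN2, in an intron of the kinesin gene KIF13A and in an exon of the keratin pseudogene KRT8P5. None of the 12 lay within 1 kb of a TSS, and 11 were more than 3 kb away. At KRT8P5 the unscaled groups overlapped, with 6.53 to 15.0 in vehicle and 13.7 to 25 in DOX, and at the other 11 regions they did not.

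**Figure D1:**
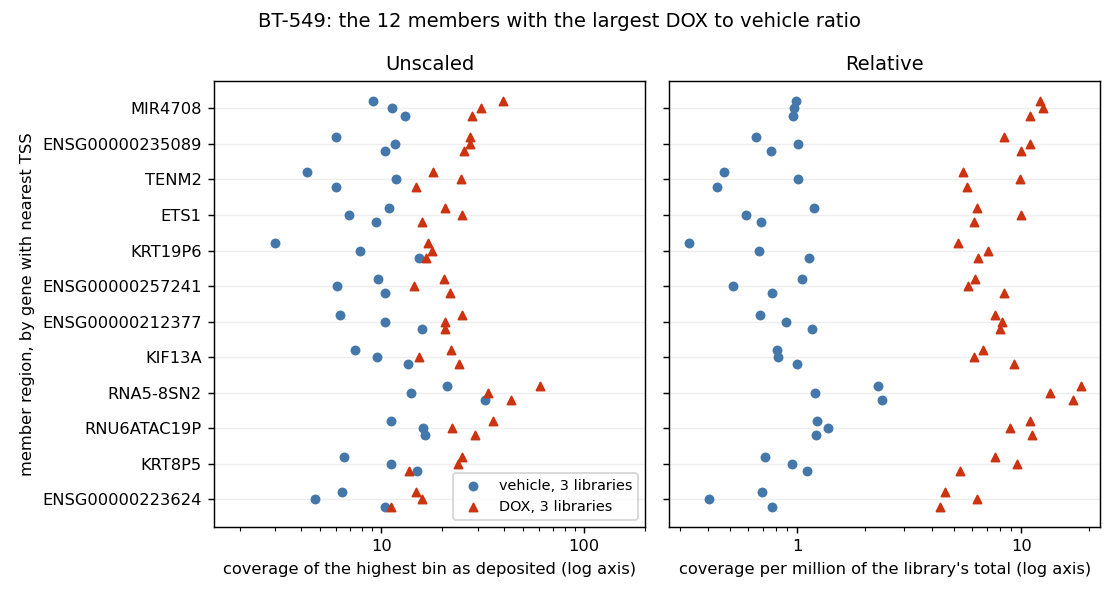
Coverage of the 12 raised regions (members) with the largest ratio in each BT-549 library, on log axes, unscaled on the left and relative to the library's sum on the right, with circles for vehicle and triangles for DOX. Every DOX point lies above every vehicle point on the right, as the rule demands, and on the left KRT8P5 is the region where the groups overlap.

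For most raised regions the higher value was relative to the library and not absolute. The unscaled DOX mean was above the unscaled vehicle mean in 81 of 887 (9.13%), and every unscaled DOX value was above every vehicle value in 22. In 436 (49.2%), every unscaled DOX value was below every vehicle value, against 97.7% of eligible regions. The median ratio of unscaled DOX to vehicle was 0.587 in raised, 0.223 in eligible and 0.0821 in lowered regions. Of the 81, 64 were distal (more than 3 kb from a TSS) and 8 lay within 1 kb of one.

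The median relative coverage of raised regions was 2.03, 2.12 and 1.94 with vehicle and 5.48, 5.84 and 5.46 with DOX. Over eligible regions the medians were 3.54, 3.56 and 3.30 with vehicle and 3.01, 3.23 and 3.07 with DOX. Raised regions lay below the typical region in vehicle and above it in DOX, but the rule chose them on these same values. Their median ratio was 2.43 and the 90th percentile 4.0. The spread of the difference over a region varied. In 589 of the 887 at least 50% of the bins had a ratio of at least 2, and with the mean over all bins in place of the highest bin 327 of the 887 were still selected.

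Nearly all raised and eligible regions had a peak in vehicle. The deposited regions were those found in at least 3 replicates. More peaks were called in the BT-549 vehicle libraries (65204 to 93929) than in the DOX libraries (30450 to 39837). A vehicle peak was thus likely before the rule was applied. A MACS2 peak was found in each BT-549 vehicle library at 98.2% to 99.8% of raised and at least 99.7% of eligible regions. Of the 887, 827 overlapped a peak in all 6 BT-549 libraries (93.2%, against 59.9% of eligible regions), and 1 overlapped a peak in all 3 DOX libraries and in no vehicle library. In the DOX libraries 96.7% to 99.0% of raised regions had a peak, against 69.1% to 76.0% of eligible and 20.2% to 28.7% of lowered regions. The median fold enrichment of the peaks, as the authors' caller gave it, was 10.5 to 13.4 in vehicle and 10.6 to 13.2 in DOX at raised regions. At eligible regions it was 16.7 to 21.4 in vehicle and 9.51 to 10.6 in DOX, so the order of the sets differed between the conditions. These peaks come from the libraries that chose the sets, so their differences between sets follow from the rule and are no separate result.

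Raised regions comprised CpG-rich promoters and AT-rich distal regions. Within 1 kb of a TSS lay 326 (36.8%), with a median GC content of 68.5% over 500 bp and a median ratio of observed to expected CpG of 0.844. Distal were 502 (56.6%), with a median GC content of 44.2% and a CpG ratio of 0.181, and 59 lay between. The distal regions were intronic in 246 and intergenic in 241 cases. Eligible regions lay within 1 kb of a TSS more often (49.6%) and lowered regions less often (14.0%).

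Raised promoters were close to other promoters in GC content, while lowered ones were AT-richer. The median GC content within 1 kb of a TSS was 66.2% in eligible and 50.8% in lowered regions. Among distal regions the medians were closer, at 45.4% and 43.6%. With the trend of coverage with GC content removed from each BT-549 library, 738 of the 887 were still selected, and 27% of these lay within 1 kb of a TSS. The part of base composition and of library depth in the ratios was not tested.

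**Figure D2:**
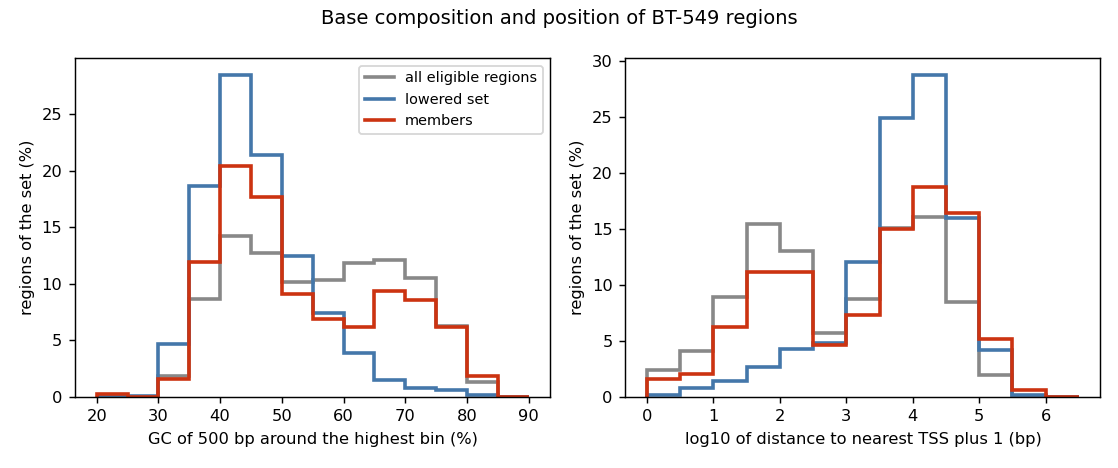
Share of regions of each set by GC content of the 500 bp around the highest bin (left) and by log10 of the distance in bp to the nearest TSS (right), for raised regions (members, n = 887), eligible regions (n = 26996) and lowered regions (n = 4311). Raised regions have 1 maximum at low GC content and a smaller one at high GC content, and lowered regions have the former alone.

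Among raised regions, which were chosen on these values, the median ratio was 2.63 in distal regions and 2.26 within 1 kb of a TSS. Over eligible regions the order was the reverse, with medians of 0.722 and 1.06. Between ratios of 2 and 2.5, 46.5% of 482 raised regions were distal and 47.3% lay within 1 kb of a TSS. At ratios of 4 and above, 72 of 90 were distal and 9 lay within 1 kb. The largest ratio within 1 kb of a TSS was 7.51, at CHST11.

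CHST11 encodes a sulfotransferase of chondroitin sulfate. Its promoter region, 98 bp from a TSS, had 1.71, 2.23 and 1.52 with vehicle and 14.8, 15.8 and 10.3 with DOX. With 49.4% GC it was AT-richer than most raised promoters, and it was the sole region within 1 kb of a TSS whose unscaled values were all higher in DOX. The promoter of ZNRF3, a ubiquitin ligase that removes Wnt receptors, had 1.71, 1.54 and 1.70 with vehicle and 6.80, 7.87 and 6.85 with DOX, a ratio of 4.35. Its unscaled values overlapped, with 15.6 to 23.3 in vehicle and 17.6 to 22.4 in DOX. UROS, an enzyme of heme synthesis, had a ratio of 4.66, and XDH, the xanthine dehydrogenase of purine breakdown, had 4.09.

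These 4 had the largest ratios within 1 kb of a protein-coding TSS, and the next 6 such promoters had ratios of 3.50 to 3.89. They were those of CSNK1G2, a casein kinase, PCBP3, an RNA-binding protein, ENSG00000289513 beside RIPK4, CCDC9, ADGRV1, an adhesion receptor, and SEPTIN9, a cytoskeletal GTPase. Replicates were close at CSNK1G2, at 2.16, 1.98 and 1.90 with vehicle and 7.46, 8.34 and 7.68 with DOX. They were uneven at ADGRV1, at 1.52, 1.52 and 1.43 with vehicle and 8.71, 3.45 and 3.79 with DOX, where DOX replicate 1 stood apart.

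AP-1 letters were found in a larger share of distal raised regions than of other distal regions. In the highest bin with 50 bp on both sides, on either strand, TGANTCA was found in 240 of 502 distal raised regions (47.8%), against 36.6% of distal eligible and 37.7% of distal lowered regions. GGAATG, bound by the TEAD factors of the Hippo pathway, was found in 24.7%, 18.9% and 19.1%. The CTCF motif was found in 1 distal raised region (0.199%), against 4.54% of distal eligible and 1.68% of distal lowered regions. TGATGNAAN, the composite of CEBP and ATF4 factors, was found in 3.19% of distal raised, 6.97% of eligible and 11% of lowered regions.

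In the 100-bp bin alone, AP-1 letters were found in 30.9% of distal raised and 24.0% of distal eligible regions. Within 1 kb of a TSS, GGGCGG was found in 64.4% of raised, 58.6% of eligible and 19.1% of lowered regions, and TGANTCA in 11.7%, 5.89% and 24.4%. The interferon response element (ISRE) was found in 2.59% of all raised, 3.08% of eligible and 7.42% of lowered regions. A match is one of letters and not a bound site, and the windows share base composition with their position.

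**Figure D3:**
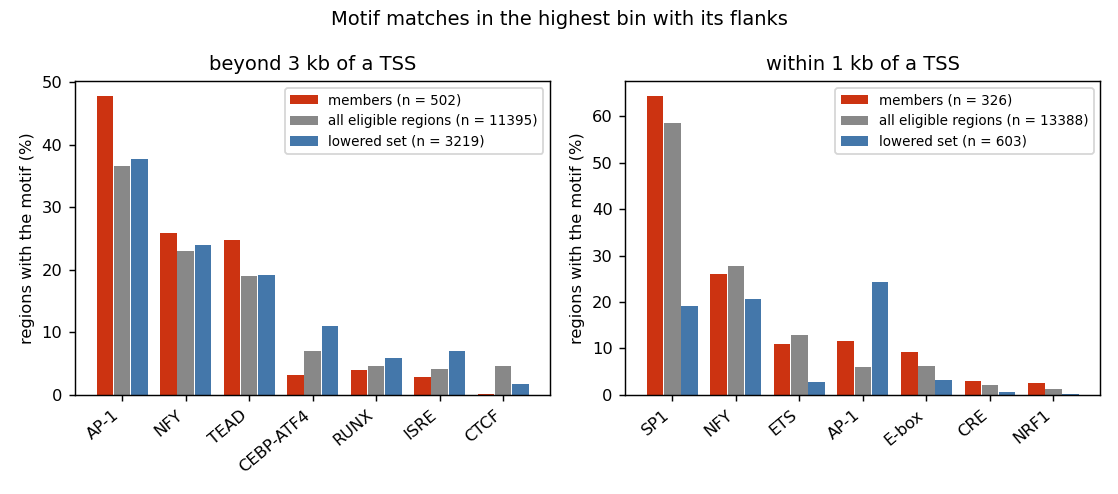
Share of regions that hold each motif in the highest bin with 50 bp on both sides, more than 3 kb from a TSS (left) and within 1 kb (right), for raised (members), eligible and lowered regions. On the left the AP-1 and TEAD bars of raised regions are the highest of the 3 sets and the CTCF bar is near 0, and on the right the SP1 bars of raised and eligible regions are both well above that of lowered regions.

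A small group of raised regions lay in repeated sequence. In 30 (3.38%), at least 50% of the 31-base words of the highest bin also occurred elsewhere in GRCh38, against 0.926% of eligible and 0.905% of lowered regions. They include the region near RNA5-8SN2, a gene of 5.8S ribosomal RNA on chromosome 21, at 2.38, 1.20 and 2.29 with vehicle and 17.0, 13.4 and 18.4 with DOX. The place of reads from such sequence is uncertain.

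Of the 5 raised regions with the highest unscaled mean, 3 lay nearest to mitochondrial pseudogenes, which are copies of mitochondrial DNA in the nuclear genome. MTCYBP13 had the highest mean, with a relative coverage of 74.1, 76.0 and 103 with vehicle and 387, 377 and 324 with DOX. MTCO3P12 had a ratio of 3.95 and MTND2P28 of 3.84. The unscaled values of MTCO3P12 were alike in the conditions, at 198 to 221 in vehicle and 192 to 209 in DOX. In all, 8 of 37 eligible regions nearest to such a pseudogene were raised, and within 1 kb of its TSS 4 of 4. Of the 31-base words of the highest bin, 58.6% at MTCO3P12, 47.1% at MTND2P28 and 1.43% at MTCYBP13 also occurred elsewhere in GRCh38. Whether reads at these regions came from mitochondrial DNA was not tested. In DU-145 the adjusted p of MTCYBP13, MTCO3P12 and MTND2P28 was 0.268, 0.325 and 0.481 (edgeR). The remaining 2 of the 5 were an AT-rich region on chromosome 3 near RNU6-488P, with 37.9 to 84.4 in vehicle and 194 to 274 in DOX, and the promoter of KLF10, a TGF-beta-induced zinc finger factor, with 16.1 to 17.1 and 30.8 to 35.5.

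Raised regions made up 2.29% of the eligible regions of chromosome 14 and 6.14% of those of chromosome 19, the lowest and highest shares of an autosome. On chromosome 19 they numbered 75, of which 62 lay within 1 kb of a TSS. The stretch of 1 Mb with most raised regions began at position 1170101 of chromosome 19 and held 11 of 52 eligible regions, with ratios of 2.04 to 3.89. Among its genes were NDUFS7, a subunit of respiratory complex I, the E-protein TCF3 and DOT1L, the methyltransferase of histone H3 lysine 79. Another stretch of that chromosome, from position 3985401, held 8 of 36, near EEF2, the translation elongation factor, the deacetylase SIRT6 and UHRF1, which maintains DNA methylation. On chromosome 16, all 6 eligible regions between 34582201 and 34595500 were raised, and 15.7% to 68.6% of the words of their bins occurred elsewhere in the genome. A further raised region lay within 100 kb of 235 raised regions (26.5%).

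DU-145 libraries had no part in the selection. Of the 887 raised regions, 759 overlapped a DU-145 region, in 757 distinct ones. A DU-145 region opened or closed where the fold change was at least 2 with an adjusted p under 1e-05 in edgeR's quasi-likelihood test across all 79177 regions, of which 11.6% opened and 4.61% closed. Among the matches of eligible BT-549 regions 5.31% opened and 1.85% closed. Of the 759 matches of raised regions, 138 opened (18.2%) and 8 closed (1.05%). Lowered regions had 2500 matches, of which 8.48% opened and 7.28% closed.

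The share of raised regions that opened in DU-145 was above that of eligible regions in 21 of 21 settings compared. These settings include the main fit and reuse the same DU-145 libraries, so they are not independent. The fit with no filter gave the same counts as the main fit. The sizes moved with the scaling. With the GC trend of each DU-145 library removed, 81 opened and 26 closed, against 2.43% and 5.98% of eligible matches, so that openings made up 75.7% of these calls in place of 94.5%. That setting moved the median log2 fold change of all DU-145 regions from 0.04 to -0.22, and scaling by library totals moved it to 0.17.

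Openings lay mostly at distal raised regions. Of 394 distal matches 116 opened (29.4%), against 11.8% of distal eligible and 9.87% of distal lowered matches, and the median log2 fold change was 0.62, against 0.05 and 0.03. With the GC trend removed 65 of the 394 opened (16.5%) and 21 closed (5.33%), against 5.32% and 8.80% of distal eligible matches, and the median was 0.12 against -0.26. The median relative coverage of these 394 in DU-145 was 2.10, 1.90 and 1.83 with vehicle and 3.86, 3.49 and 3.61 with DOX. Within 1 kb of a TSS 7 of 313 matches opened (2.24%), against 0.907% of eligible ones, with a median log2 fold change of -0.27 against -0.39. The division by position was made after the values were seen. Over all 759 the median was 0.08, against -0.27 for eligible regions, and it was -0.08 with the GC trend removed.

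At an adjusted p under 0.05 (edgeR) with no fold limit, 281 of the 759 were higher in DOX (37.0%) and 196 lower (25.8%), against 14.1% and 43.5% of eligible matches. Of the lower ones 142 lay within 1 kb of a TSS. There 45.4% of raised matches were lower and 7.99% higher, against 61.6% and 3.30% of eligible matches.

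**Figure D4:**
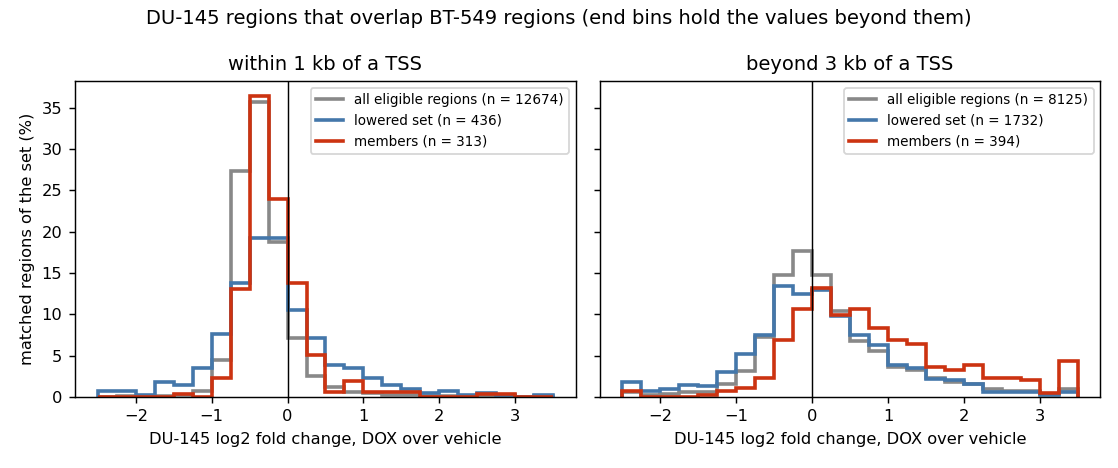
DU-145 log2 fold change of DOX over vehicle at regions that overlap raised (members), eligible or lowered BT-549 regions, within 1 kb of a TSS (left) and more than 3 kb away (right), as the share of each set, with values beyond the axis in the end bins. On the left the sets lie mainly below 0, and on the right raised regions reach higher values, with a median of 0.62 against 0.05 for eligible regions.

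The BT-549 ratio gave no steady order of DU-145 opening among distal raised regions. The opening share was 31.8% of 173 matches at ratios of 2 to 2.5, 31.5% of 73 at 2.5 to 3, 23.6% of 89 at 3 to 4 and 28.8% of 59 at 4 and above. It was also similar with and without AP-1 letters, at 28.3% of 198 and 30.6% of 196. Among distal eligible regions it was 16.9% with the letters and 8.68% without. The difference between these sets was not tested.

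Among raised regions that opened in DU-145, an intronic region of LYST, the gene of a regulator of lysosome traffic, had the smallest adjusted p. Its DU-145 relative coverage was 0.0425, 0.0708 and 0.141 with vehicle and 4.91, 3.90 and 5.11 with DOX (log2 fold change 5.33 ± 0.31 SE, adjusted p = 1.16e-32, edgeR). In BT-549 it was 3.32, 2.51 and 2.42 with vehicle and 7.61, 11.7 and 11 with DOX. The region was thus near 0 in DU-145 vehicle cells and already covered in BT-549 vehicle cells.

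The region near LINC01450, whose AP-1 letters are printed above, had 1.51, 0.967 and 0.949 in DU-145 vehicle and 9.05, 6.78 and 8.13 in DOX (log2 fold change 2.70 ± 0.16 SE, adjusted p = 8.65e-31, edgeR). In BT-549 it lay close to the limit of the rule, at 1.53, 1.20 and 1.43 with vehicle and 3.43, 1.98 and 2.94 with DOX. Regions near ENSG00000266479 and MIR5008 and in an intron of the kinase gene MAST4 opened with DU-145 log2 fold changes of 3.18, 2.29 and 2.45. Of the 12 regions with the largest BT-549 ratios, those near RNU6ATAC19P and ENSG00000257241 opened, with log2 fold changes of 2.03 ± 0.16 and 1.62 ± 0.20. The MIR4708 region had 4.97, 4.77 and 5.40 in DU-145 vehicle and 9.26, 9.40 and 8.93 in DOX, which is under the fold limit (0.78 ± 0.11, adjusted p = 1.22e-09, edgeR). The CHST11 promoter opened, with 2.26 to 2.63 in vehicle and 6.58 to 7.08 in DOX (1.40 ± 0.14).

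The 8 raised regions that closed in DU-145 include an intronic region of LINC01182. It had 5.58, 4.85 and 5.03 in DU-145 vehicle and 0.944, 0.590 and 0.497 in DOX (log2 fold change -3.08 ± 0.19 SE, adjusted p = 1.76e-30, edgeR). In BT-549 it had 1.85, 1.98 and 1.91 with vehicle and 4.50, 3.64 and 4.06 with DOX. Its unscaled BT-549 values were 25.2, 23.1 and 17.5 with vehicle and 11.6, 9.11 and 13.3 with DOX, all lower in DOX. VPS13D, a lipid transfer protein gene, had an intronic region with a DU-145 log2 fold change of -3.51 ± 0.25, and the region near RPL23AP16 had -2.55 ± 0.17. LINC-PINT had 17.5, 15.0 and 16.0 in DU-145 vehicle and 8.78, 7.89 and 9.01 in DOX. The LINC01376 region had 8.66 to 9.39 and 3.68 to 4.23. The other 3 were near PGM1, PDE4B and STXBP5-AS1.

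**Figure D5:**
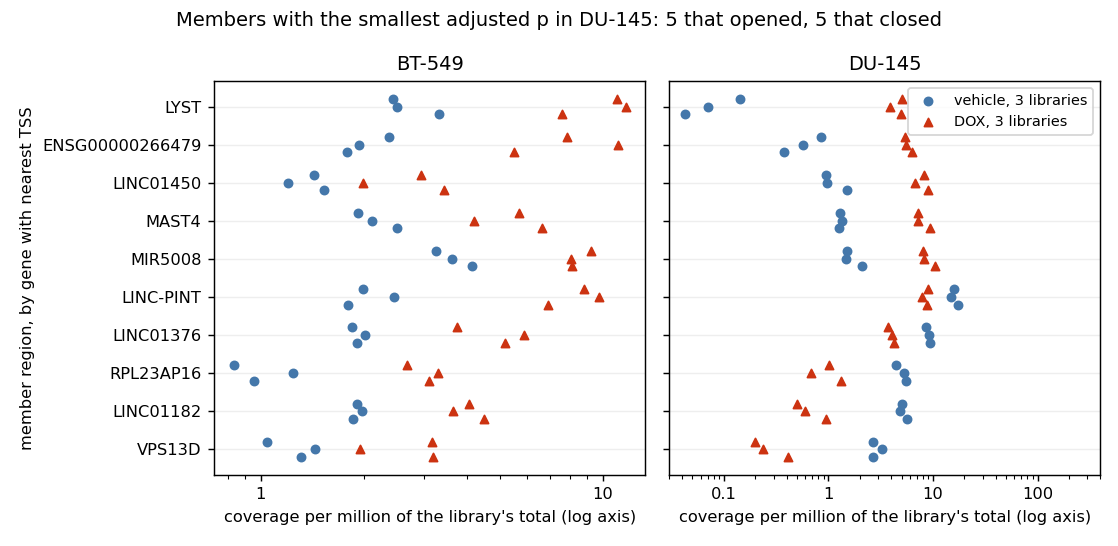
Relative coverage in each library of 10 raised regions (members), the 5 opening and the 5 closing in DU-145 with the smallest adjusted p, in BT-549 (left) and DU-145 (right) on log axes, with circles for vehicle and triangles for DOX. DOX lies above vehicle in BT-549 by selection, and in DU-145 it lies above vehicle at the upper 5 regions and below it at the lower 5.

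Peaks called per library gave a like picture in DU-145. A peak was found at 75.3% to 78.9% of raised regions in the vehicle libraries and at 85.3% to 87.4% in the DOX libraries, against 77.6% to 81.8% and 82.6% to 84.1% of eligible regions. At 47 raised regions (5.30%) all 3 DOX libraries and no vehicle library had a peak, against 1.82% of eligible regions, and the reverse was found at 0 raised regions and 0.252% of eligible ones. More peaks were called in the DU-145 DOX libraries (87702 to 95487) than in vehicle (63271 to 83605), and the part of this in the counts was not tested.

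Genes of known pathways were set beside the raised regions by position alone. Of 28 AP-1 and immediate early genes, 9 had a raised region within 100 kb of a TSS (32.1%), against 11% of 19103 autosomal protein-coding genes. A lowered region lay within 100 kb of 14 of the 28 (50%), against 31% of all these genes. The region 65.0 kb from JUN, named after its values were seen, had 11.5, 11 and 12.4 with vehicle and 27.6, 24.7 and 27.9 with DOX. It opened in DU-145 (log2 fold change 1.15 ± 0.11), as did the region 24.3 kb from FOSB (1.10 ± 0.20). Other regions of the list were lower in DU-145. The one 66.5 kb from MYC had -0.45 ± 0.08 (adjusted p = 6.36e-07, edgeR). The one 82.0 kb from FOSL1 had -0.43 ± 0.16 (adjusted p = 0.026, edgeR). At the TSS itself lay the region of EGR4, an early growth response factor, at 1.58, 1.25 and 1.19 with vehicle and 3.69, 2.53 and 4.80 with DOX. The small Maf factor MAFK had 2.13, 1.87 and 2.17 with vehicle and 5.54, 2.89 and 4.33 with DOX. In DU-145 the log2 fold changes of these promoters were -0.36 ± 0.12 and 0.19 ± 0.13, with adjusted p-values of 0.0058 and 0.217 (edgeR).

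Of 28 mesenchymal genes, 7 had a raised region within 100 kb (25%) and 4 within 1 kb (14.3%), against 11% and 1.73% of all protein-coding genes. A lowered region lay within 100 kb of 14 of the 28 (50%) and within 1 kb of 3 (10.7%), against 31% and 2.04%. The 4 with a raised region were the membrane protein genes CAV2 and CD44, TGFBI, a matrix protein induced by TGF-beta, and ZEB1, a repressor of epithelial genes. ZEB1 had 2.5, 2.92 and 3.17 with vehicle and 7.61, 5.72 and 6.33 with DOX, and TGFBI had 1.62, 1.79 and 1.40 and 4.27, 2.81 and 2.61. In DU-145 their adjusted p-values were 0.339 and 0.850 (edgeR), while a region 58.5 kb from SPARC, a matrix protein gene, opened with a log2 fold change of 1.86 ± 0.21. A region 11.7 kb from VIM was also higher (0.95 ± 0.18, adjusted p = 1.8e-06, edgeR). The regions 0.2 kb and 76.0 kb from CAV2 were lower, at -0.27 ± 0.12 and -0.43 ± 0.12 (adjusted p = 0.0386 and 0.00107, edgeR).

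Of 27 epithelial genes, 8 had a raised region within 100 kb (29.6%, against 11% of all protein-coding genes) and 1 within 1 kb. A lowered region lay within 100 kb of 7 (25.9%, against 31%). The gene with a raised region at its TSS was OCLN, the gene of the tight junction protein occludin, at 2.63, 2.94 and 2.42 with vehicle and 4.98, 8.04 and 6.20 with DOX. A region 4994 bp from the claudin gene CLDN4 had 3.97, 4.98 and 3.98 with vehicle and 12.2, 12.8 and 15.1 with DOX. In DU-145 the log2 fold changes were -0.07 ± 0.12 and 0.15 ± 0.08, and neither passed an adjusted p of 0.05. Several of these counts share a region between neighbouring genes, as CLDN3 and CLDN4 do.

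Of 38 receptor tyrosine kinase and growth factor genes, 5 had a raised region within 100 kb (13.2%) and 2 within 1 kb (5.26%). A lowered one was found for 17 (44.7%) and 3 (7.89%). Of all protein-coding genes, 11% had a raised and 31% a lowered region within 100 kb, and 1.73% and 2.04% within 1 kb. The promoter of the ephrin receptor EPHA2 had 6.16, 5.87 and 7.05 in vehicle and 13.2 in each DOX library. In DU-145 it was also higher, at 7.84, 6.75 and 6.16 with vehicle and 9.71, 10.6 and 10.1 with DOX (log2 fold change 0.46 ± 0.10, adjusted p = 6.99e-05, edgeR). The promoter of IGF1R, the IGF1 receptor, had 4.58, 3.50 and 2.79 in BT-549 vehicle and 7.51, 6.31 and 8.53 in DOX. In DU-145 it was lower (-0.43 ± 0.12, adjusted p = 0.0014, edgeR). An intronic region of MET, the HGF receptor, had a BT-549 ratio of 3.13 and a DU-145 adjusted p of 0.125.

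Of 40 TGF-beta and BMP genes, 4 had a raised region within 100 kb (10%, against 11% of all protein-coding genes). Within 1 kb 1 had one (2.5%, against 1.73%), the SMAD ubiquitin ligase SMURF2. A lowered region lay within 100 kb of 14 (35%, against 31%) and within 1 kb of 2 (5%, against 2.04%). An intronic region of SMAD3, the signal transducer of TGF-beta, had 1.61, 1.60 and 1.37 with vehicle and 3.48, 3.96 and 3.09 with DOX, and was lower in DU-145 (log2 fold change -0.24 ± 0.10, adjusted p = 0.0331, edgeR). An intergenic region 33749 bp from the ligand gene BMP6 had a BT-549 ratio of 2.15 and was higher in DU-145 (0.62 ± 0.16, adjusted p = 0.00103, edgeR). Of 32 cell polarity genes, 15 had a lowered region within 100 kb (46.9%, against 31%) and 4 a raised one (12.5%, against 11%). Among the raised regions were the promoters of the kinase MARK2, with a ratio of 3.10, and of PARD6B. PARD6B had 8.11, 9.95 and 8.72 with vehicle and 18.8, 20.5 and 18.9 with DOX.

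In the remaining lists, 0 or 1 gene each had a raised region within 1 kb of a TSS. Over all protein-coding genes, the shares within 100 kb were 11% for raised and 31% for lowered regions. Of 30 genes of mitochondrial protein quality control and translation, 3 had a raised region within 100 kb (10%) and 10 a lowered one (33.3%). The intronic region of MRPS22, a protein of the mitochondrial ribosome, had a BT-549 ratio of 3.97 and was higher in DU-145 (log2 fold change 0.64 ± 0.14). The region 49846 bp from TFAM, which packs mitochondrial DNA, had 2.49 and was lower (-0.72 ± 0.09). Of 43 interferon genes, 9 had a raised (20.9%) and 33 a lowered region (76.7%) within 100 kb. Some of the 9 share a raised region. Within 1 kb 18 of them had a lowered region (41.9%, against 2.04% of all protein-coding genes). Within 1 kb 1 had a raised region (2.33%, against 1.73%), which was the IRF3 promoter at a ratio of 2.31. A raised region lay within 100 kb of 3 of 26 p53 targets (11.5%) and 2 of 31 Hippo genes (6.45%). The same held for 1 of 30 stress response genes (3.33%) and 4 of 19 SWI/SNF and MUC1-C partner genes (21.1%). In the same order, a lowered one lay within 100 kb of 14 (53.8%), 16 (51.6%), 19 (63.3%) and 5 (26.3%).

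Regions on both sides of the limit had like values. The 3 raised regions with the smallest ratio were at SLC22A23, a solute carrier, at ERCC4, a nuclease of DNA repair, and near ENSG00000225000. Their DOX and vehicle means were 6.50 and 3.25, 9.76 and 4.88, and 4.28 and 2.14. Just outside were RELB, an NF-kappaB subunit, with 7.91 and 3.95, INIP with 7.47 and 3.74, and LINC01592 with 15.4 and 7.71.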

How the data were processed

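ATAC-seq libraries of BT-549 and DU-145 cells were aligned by the authors to GRCh38 with BWA, duplicates were marked with Picard, and MACS2 2.2.7.1 called peaks per replicate at a q of 0.05. The deposited tables hold, per 100-bp bin of regions found in at least 3 replicates, the mean number of fragments per base, an estimated count that the authors did not scale. The deposited peak lists hold a score, a fold enrichment and −log10 p- and q-values. Peaks were used for overlap and fold enrichment only.

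The regions and gene lists were chosen with earlier results of these data known. Relative coverage was the bin value over the library's summed coverage. For DU-145, the highest bin of each region, rounded to whole numbers, was fitted with edgeR 4.0.16 (R 4.3.3; robust quasi-likelihood, TMM, a total of at least 10, Benjamini-Hochberg). The 2 tables were made separately, so tests stayed within DU-145. A raised region was matched to the DU-145 region with the largest overlap of at least 1 bp. Alternatives used DESeq2 1.42.0, limma 3.58.1, other scalings, filters, cutoffs and left-out libraries. Fits were tested on simulated data. TSSs were from GENCODE 44, and a promoter reached to 3 kb. SE is the log2 fold change over the square root of F.

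Regions were named by the nearest TSS. Named were the 12 with the largest ratio, the 3 on each side of the limit, up to 5 opening and 5 closing in DU-145 by smallest adjusted p, the 10 largest ratios within 1 kb of a protein-coding TSS, up to 3 nearest to genes of each list, the 5 with the highest unscaled mean and the 3 densest stretches of 1 Mb. Regions shown for their sequence, and JUN, FOSB, FOSL1, MYC, SPARC, VIM, CAV2, CD44, CLDN3, PGM1, PDE4B and STXBP5-AS1, were named after their values were seen. A repeat-masked share was not computed. One interferon gene and some sequences are not reported here.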

Additional observations from a re-analysis of the deposited data

Results flagged for a closer look

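At 156 raised regions every DU-145 DOX library was below every DU-145 vehicle library, while every BT-549 DOX library was above every vehicle library by selection. Of the 54 named regions with a DU-145 match, 13 were of this kind, and the difference between the lines was not tested at any of them. The DU-145 log2 fold change was -3.51 at VPS13D, -3.08 at LINC01182, -2.55 at RPL23AP16, -1.29 at LINC01376 and -1.02 at LINC-PINT. At the remaining 8 it was -0.72 at ADGRV1, -0.72 at TFAM, -0.67 at ERCC4, -0.61 at KLF10, -0.43 at SEPTIN9, -0.43 at IGF1R, -0.38 at PARD6B and -0.24 at SMAD3. Among eligible matches 37.0% had every DU-145 DOX library below every vehicle library, against 20.6% of raised matches.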

How the results depend on the processing

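The number of raised regions was 1152 with TMM, 1082 with RLE and 1121 with the GC trend removed, and 887, 887 and 738 of the 887 were among them. It was 8 with no scaling, 2433 at a ratio of at least 1.5, 235 at 3, 415 with an unscaled mean of at least 20, 2096 with no minimum and 414 with the mean over all bins. Leaving out 1 BT-549 library gave 867 to 1073. The share within 1 kb of a TSS was 31.2% for protein-coding TSSs and 27% for regions that remained with the GC trend removed.

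In DU-145, DESeq2 gave 91 openings and a median log2 fold change of 0.047 at raised regions. Library totals gave 5 closings and a median of 0.21, and loess offsets a median of 0.25. With the GC trend removed there were 81 openings and 26 closings, and the median turned to -0.077. At an adjusted p under 0.05 with no fold limit, 281 were higher and 196 lower. Distal regions alone, an alternative chosen after seeing the data, had a median of 0.62, which was 0.12 with the GC trend removed and 0.75 with library totals. Leaving out 1 DU-145 library gave 120 to 134 openings, 5 to 9 closings, with 5 without DOX replicate 2, and medians of 0.06 to 0.10. The causes were not tested.

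Replicate numbers did not pair the libraries, since no correlation of the deviations of same-numbered libraries was above 0.1. With a replicate block, 136 opened and 8 closed, with a median of 0.07. Without regions in repeated sequence, also chosen after seeing the data, 857 regions, 135 openings and 8 closings remained. Low coverage of the BT-549 DOX libraries limits the precision of each ratio, and no interval was given because bin values are means over bases.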

Other observations

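Promoters of zinc finger (ZNF) genes, a large family of DNA-binding repressors, were raised or lowered in small numbers in BT-549. Of 441 eligible regions within 1 kb of a ZNF gene TSS, 4 were raised (0.907%) and 3 lowered (0.680%), against 2.33% and 3.30% of the 11873 within 1 kb of a protein-coding TSS. The E-box letters CACGTG, bound by MYC and related factors, were found in 9.20% of raised, 6.20% of eligible and 3.15% of lowered regions within 1 kb of a TSS. The NRF1 motif was found in 2.45%, 1.34% and 0.166% of these regions. The heat shock factor motif was found in 0.225% of all raised and 0.285% of all eligible regions, and the telomeric motif in none of either.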
